A study of Arabidopsis thaliana with 12 samples.

Results

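The comparison described here is the difference between 2 genotype effects: the line labelled aladin minus Wassilewskija-4 in root, less the same difference in shoot. It used 12 of the 12 arrays of the series, and 17481 of 38408 probe sets, namely those linked to at least 1 named gene. Seedlings of Arabidopsis thaliana were profiled with the Arabidopsis Gene 1.0 ST Array of Affymetrix, a chip of short DNA probes read by fluorescence. There were 4 groups of 3 libraries (1 array each): roots labelled aladin, roots of Wassilewskija-4, shoots labelled aladin, and shoots of Wassilewskija-4. Wassilewskija-4 is the natural accession that served as wild type. All plants were 10 days old, and all had 3 days of stratification. All had grown on vertical plates of half-strength Murashige and Skoog medium with 1% sucrose and 1% agar, at 20 °C and a 16 h photoperiod. Neither the allele carried by aladin nor the site of its mutation is in the labels. The libraries are labelled biological replicates, but the labels do not say how many plants or plates each held, so p-values measure the spread between these libraries.

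ALADIN belongs to the nuclear pore complex, the channel through which messenger RNA leaves the nucleus and proteins enter or leave it. Roots and shoots share this channel but run different gene programmes: shoots photosynthesise, and roots take up water and ions and import sugar. A genotype can therefore shift a gene alike in both organs or unequally, and the interaction contrast measures the unequal part.

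All values below are log2 signals made with RMA (robust multi-array average) by the authors, and a difference of 1 is a 2-fold change. A positive interaction means that aladin minus Wassilewskija-4 was greater in root than in shoot. A gene passed when its adjusted p from limma, over the 17481 probe sets, was under 0.05, and SE is limma's standard error with 3 libraries per group. Array medians lay between 5.86 and 6.0, and Pearson's r between libraries of 1 group across probe sets was 0.990 to 0.993 in root and 0.983 to 0.987 in shoot. The organ labels held against their markers: the 4 measured of 9 photosynthesis markers averaged 6.55 to 7.23 in aladin-labelled roots and 6.61 to 6.77 in Wassilewskija-4 roots, and 10.4 to 10.6 in the 6 shoot libraries. No listed marker of root cap, endodermis, xylem or phloem was measured. In whole organs, fewer cells of a type and less RNA per cell cannot be told apart.

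The ALADIN gene itself (AT3G56900) went the same way in both organs. Its signal was 12.58, 12.73 and 12.75 in roots labelled aladin, against 8.42, 8.40 and 8.36 in Wassilewskija-4 roots. In shoots it was 12.41, 12.35 and 12.41 in libraries labelled aladin, against 7.71, 7.80 and 7.71 in Wassilewskija-4. Every library labelled aladin was thus the higher one on this probe set. Whether the signal comes from an intact transcript was not tested, and directions below are those of the labels. The interaction did not pass (-0.36, SE 0.11, adjusted p = 0.12).

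The genotype effect differed between root and shoot for 375 of the 17481 probe sets (2.15%). It was higher in root for 250 (1.43%) and lower in root for 125 (0.715%), and 142 and 69 of these differed by at least 1 log2 unit. In the same fit, 1336 probe sets (7.64%) passed for the genotype effect in root and 518 (2.96%) passed in shoot. The commonest pattern was a gene that rose in aladin-labelled roots without passing in shoot, with 188 of the 375. A further 80 fell in root without passing in shoot, 29 fell in shoot without passing in root, and 26 rose in shoot without passing in root. Both organs rose for 23, of which 20 rose more in root. Both fell for 1, 10 passed in opposite directions, and 18 passed in neither organ alone. The median size of the genotype effect over the 375 was 0.89 in root and 0.25 in shoot. These classes share libraries and 1 spread estimate with the interaction test, so they describe the 375 and do not add evidence.

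The count of calls was lower in each of the 12 fits that left out 1 library, at 211 to 374. It was 213 without Wassilewskija-4 root replicate 1, 235 without replicate 2 and 211 without replicate 3 of that group. For aladin root it was 287 without replicate 1, 220 without replicate 2 and 235 without replicate 3. Without 1 shoot library it was 284 to 374. How much of the drop came from having fewer libraries was not tested. Of the 375, 176 passed in all 12 fits that left out 1 library, 5 passed in none, and 0 turned sign. The median SD between replicates over all probe sets was 0.168 in shoot and 0.123 in root, while limma used 1 spread per probe set for all groups. With a separate weight for each organ, 345 passed, of which 327 were among the 375. Both shoot means lay under 4.03, the 25th percentile of all values, for 58 of the 375, and both root means did for 18. Among genes described below, those with both shoot means under 4.03 included AT3G61390, AT4G27654, AT2G36650, AT1G19210, CCOAMT, GRX480, CML37, LTI30 and AGL42. A low signal on an array can hide a change in that organ.

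**Figure D1:**
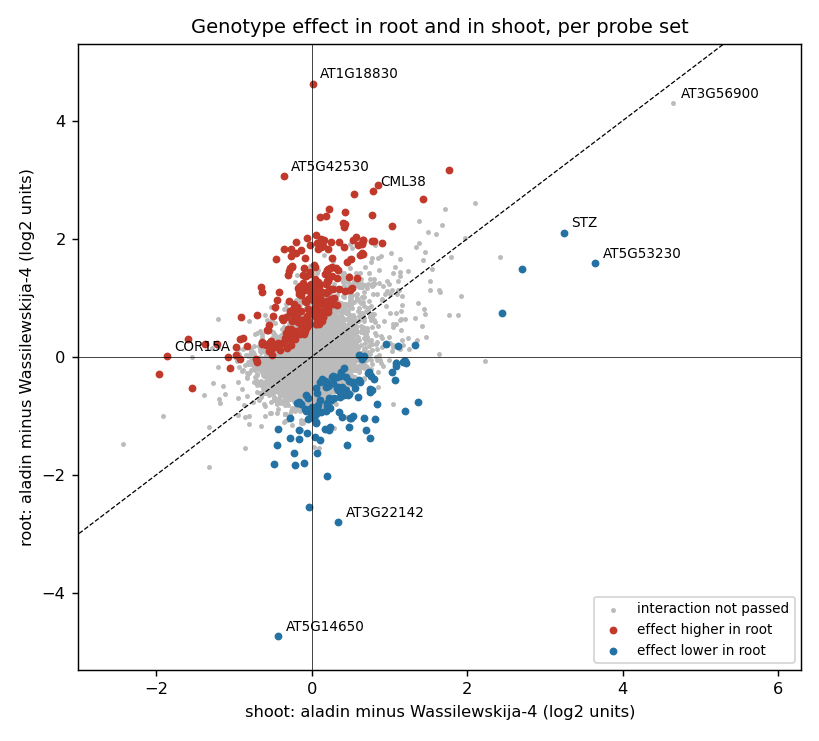
Each point is a probe set, with aladin minus Wassilewskija-4 in shoot on the horizontal axis and in root on the vertical axis (log2 units), and the dashed line marks equal effects. Red points (250) had a higher effect in root and blue points (125) a lower one, and AT3G56900 lies near the line at 4.65 in shoot and 4.29 in root.

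AT1G18830 had the largest positive interaction and the smallest p. RefSeq lists it under the older symbol SEC31A, and SEC31 proteins build the outer coat of the vesicles that carry cargo out of the endoplasmic reticulum. In root it had 9.06, 9.44 and 9.16 in libraries labelled aladin, against 4.57, 4.79 and 4.42 in Wassilewskija-4. Shoots had 4.77, 4.87 and 4.54 when labelled aladin, against 4.83, 4.65 and 4.66 in Wassilewskija-4. The root groups were far apart, and the shoot groups overlapped at the level of Wassilewskija-4 roots. The interaction was 4.62 (SE 0.18, 24.5-fold, adjusted p = 2.7e-07). It was the 1 member of 6 in the unfolded protein response list that passed, against 1.43% higher over all probe sets. The list's median was -0.06, against -0.01 over all probe sets. BIP1, a chaperone of the endoplasmic reticulum, had an interaction of -0.92 that did not pass (SE 0.36, adjusted p = 0.27). Both its shoot means, 3.53 and 3.09, lay under 4.03. CRT1b, of the same list, had a root effect of -0.33 that passed (adjusted p = 0.021). Its interaction of -0.33 did not pass (SE 0.11, adjusted p = 0.17). In root 2 of the 6 members rose and 1 fell, against 4.63% and 3.01% over all probe sets.

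Of the other genes with the highest interactions, most are known here by locus only. AT5G42530 had 6.71, 6.45 and 8.27 in aladin-labelled roots, against 4.62, 3.24 and 4.39 in Wassilewskija-4 roots. Its shoot values were 11.97, 11.68 and 12.04 with the aladin label, against 12.34, 12.21 and 12.20 in Wassilewskija-4. This strongly shoot-expressed gene was therefore higher in every aladin-labelled root library, with 1 of them far above the other pair, and its interaction was 3.41 (SE 0.60, adjusted p = 0.013). AT3G61390 had 6.53, 6.44 and 6.52 in aladin-labelled roots, against 4.65, 4.66 and 4.68 in Wassilewskija-4 roots, and all 6 shoot libraries lay between 3.62 and 4.05. Its interaction of 2.1 had a small error (SE 0.12, adjusted p = 7.4e-06). AT4G27654 (2.28), AT2G36650 (2.26), AT1G19210 (2.20), AT2G22760 (2.17), AT1G61750 (2.15), AT5G58390 (2.12) and AT5G03204 (2.07) completed the named loci at the top. In all 7 the root effect passed as a rise and the shoot effect did not pass. For AT3G61390, AT4G27654, AT2G36650 and AT1G19210 both shoot means lay under 4.03, where a change in shoot can be hidden. AT1G69890, with an interaction of 1.70, had one of the smallest p values (SE 0.13, adjusted p = 7.7e-05). The call of AT5G58390 ended without Wassilewskija-4 root replicate 1 (adjusted p = 0.054) or replicate 3 (adjusted p = 0.055).

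The 3 measured genes of the touch and wound list all rose in aladin-labelled roots and all passed the interaction, 2 as higher in root and 1 as lower. Over all probe sets 4.63% rose in root, and 1.43% and 0.715% passed the interaction as higher and lower. The list was built around CML38 and STZ with earlier results of these data known, so its calls and median add no evidence. CML38, a calmodulin-like calcium sensor, had 8.05, 7.99 and 8.11 in roots labelled aladin, against 5.21, 5.18 and 5.32 in Wassilewskija-4 roots. Shoots labelled aladin had 5.61, 5.55 and 5.25, against 4.78, 5.03 and 4.23 in Wassilewskija-4 shoots. Neither organ's groups overlapped, and the rise was larger in root (interaction 2.02, SE 0.24, adjusted p = 0.0011). CML37, a close relative, had 4.91, 4.74 and 4.73 in aladin-labelled roots, against 3.46, 3.36 and 3.48 in Wassilewskija-4 roots. Its shoot groups overlapped between 3.04 and 3.51 (interaction 1.44, SE 0.19, adjusted p = 0.0020).

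STZ, a zinc-finger transcriptional repressor of stress responses, rose in both organs and more in shoot. In root it had 11.87, 11.84 and 12.01 with the aladin label, against 9.96, 9.59 and 9.86 in Wassilewskija-4. Shoot values were 9.73, 9.73 and 9.51 with the aladin label, against 6.05, 6.91 and 6.27 in Wassilewskija-4. The interaction was -1.15 (SE 0.26, adjusted p = 0.046). This call was the least stable of the list: it ended without any 1 of 11 of the 12 libraries, all but Wassilewskija-4 shoot replicate 2, with an adjusted p of up to 0.11 without aladin root replicate 2. The median of the touch and wound list, chosen with earlier results known, was 1.44, against -0.01 over all probe sets.

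Among genes of salicylic acid and defence, 1 of 3 passed, as higher in root, against 1.43% over all probe sets. GRX480, a glutaredoxin that binds TGA transcription factors and links salicylic acid and jasmonate signalling, had 5.69, 5.84 and 6.03 in roots labelled aladin, against 3.92, 3.85 and 3.76 in Wassilewskija-4 roots. The shoot groups overlapped between 2.99 and 3.49, and the interaction was 2.07 (SE 0.18, adjusted p = 2.0e-04). The median was 0.13 for these 3 genes, and -0.02 for the 16 redox genes, of which GRX480 was also the 1 call.

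WRKY41, a WRKY transcription factor, had 6.21, 6.48 and 6.43 in roots labelled aladin, against 4.42, 4.36 and 4.66 in Wassilewskija-4 roots. Its shoot groups overlapped between 4.0 and 4.74 (interaction 1.91, SE 0.23, adjusted p = 0.0011). It was the 1 call of 7 WRKY genes with a probe set of their own (median 0.22), against 1.43% higher over all probe sets. A probe set that names both WRKY53 and 3xHMG-box2, chosen after its values were seen, passed as well (1.28, adjusted p = 0.020), and its signal cannot be assigned to either gene. Its call ended without aladin root replicate 3 (adjusted p = 0.057), Wassilewskija-4 root replicate 1 (adjusted p = 0.060) or Wassilewskija-4 root replicate 2 (adjusted p = 0.055). Also chosen after its values were seen, PUB22, a ubiquitin ligase that dampens immune signalling, rose in both organs and more in root (interaction 0.89, SE 0.13, adjusted p = 0.0046). Its root effect was 1.36 and its shoot effect 0.47. In shoot, UGT76B1, a glucosyltransferase of salicylic and isoleucic acid, had 8.44, 6.34 and 8.78 with the aladin label, against 5.94, 5.25 and 5.67 in Wassilewskija-4. Root values lay between 10.21 and 10.60 in all 6 libraries. The spread in aladin-labelled shoots was wide, and the interaction of -2.30 did not pass (SE 0.67, adjusted p = 0.11).

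**Figure D2:**
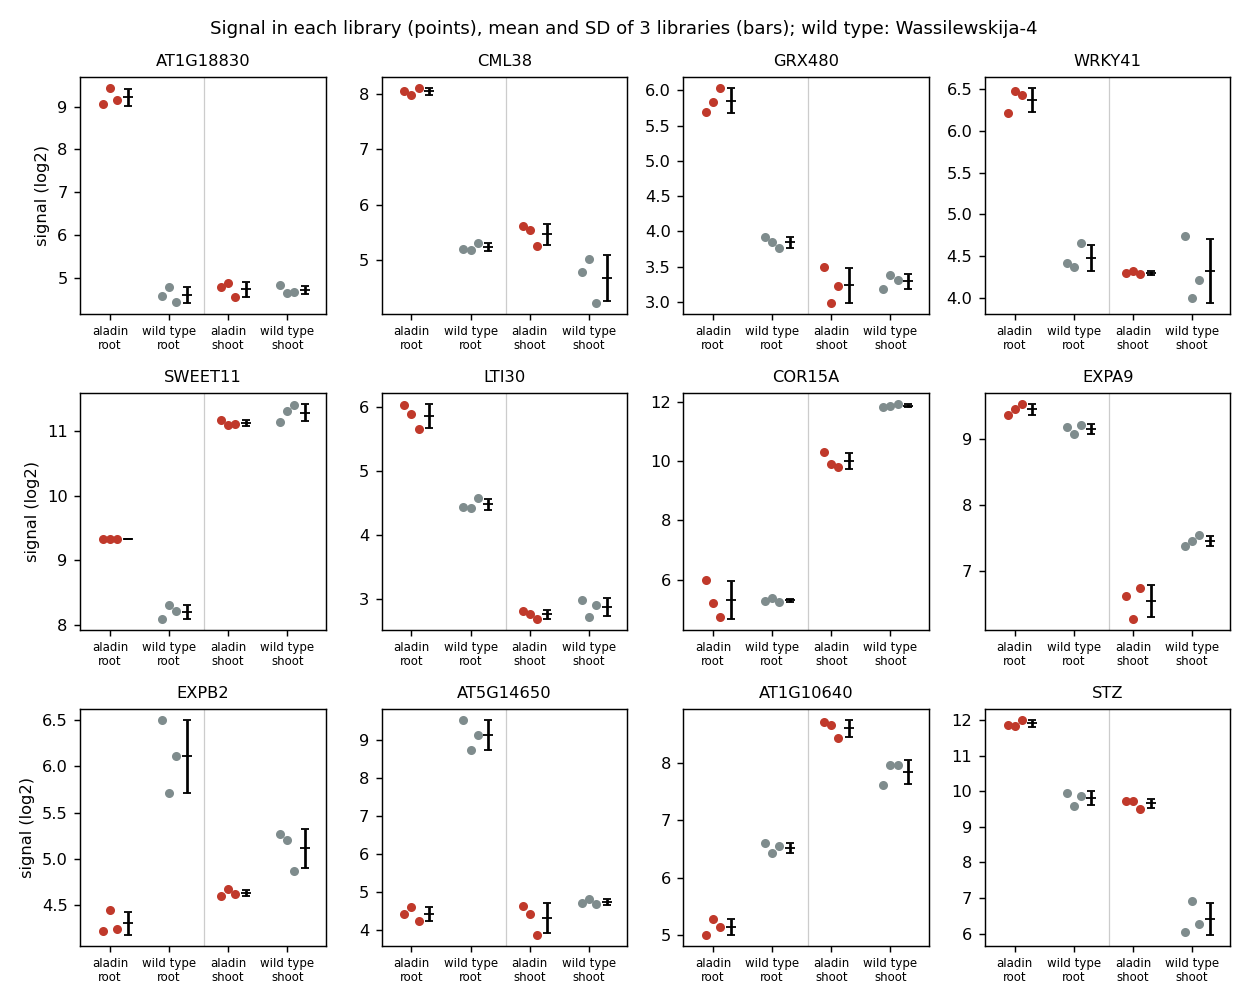
Log2 signal of 12 genes in every library (points, on an axis that does not start at 0), with the mean and SD of 3 libraries as bars, for aladin (red) and Wassilewskija-4 (grey, marked wild type) in root and in shoot. AT1G18830 is near 9 in the 3 aladin-labelled root libraries and under 5 in the other 9, while the COR15A groups are apart in shoot and overlap in root.

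Cold and drought genes reached a positive interaction by different routes. LTI30, a dehydrin, rose in root: it had 6.04, 5.89 and 5.67 in roots labelled aladin, against 4.45, 4.42 and 4.59 in Wassilewskija-4 roots. The shoot groups overlapped between 2.69 and 3.00 (interaction 1.49, SE 0.15, adjusted p = 4.1e-04). COR15A, a chloroplast protein of cold-acclimated leaves, fell in shoot instead. Shoots labelled aladin had 10.30, 9.91 and 9.79, against 11.82, 11.83 and 11.92 in Wassilewskija-4 shoots. Root values were 6.01, 5.21 and 4.75 with the aladin label, against 5.28, 5.37 and 5.27 in Wassilewskija-4. The shoot groups were apart and the root groups overlapped, with an interaction of 1.88 (SE 0.34, adjusted p = 0.016). COR15B had an interaction of 0.67 that did not pass (adjusted p = 0.30). All its group means, in root and in shoot, lay under 4.03, where a change can be hidden, so this miss says little. In the whole list 2 of 6 members passed, both higher in root, against 1.43% over all probe sets, and the median was 0.44.

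Sugar transporters divided in the same manner. SWEET11, a sucrose exporter of the phloem-loading step in leaves, had 9.34, 9.33 and 9.32 in aladin-labelled roots, against 8.09, 8.31 and 8.22 in Wassilewskija-4 roots. In shoot it had 11.18, 11.10 and 11.10 with the aladin label, against 11.14, 11.31 and 11.41 in Wassilewskija-4. The root groups were apart and the shoot groups overlapped, with an interaction of 1.28 (SE 0.12, adjusted p = 2.8e-04). SWEET1, a glucose transporter, had 6.47, 6.19 and 6.47 in aladin-labelled shoots, against 7.0, 7.24 and 7.37 in Wassilewskija-4 shoots. That is a fall in shoot, whereas its root effect of 0.18 did not pass (interaction 1.00, SE 0.17, adjusted p = 0.010). The other 14 of 16 SWEET genes did not pass, and the median was 0.09. Among all probe sets 1.43% passed as higher in root.

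Among photosynthesis genes, more rose than fell in roots labelled aladin. Of 17 nuclear genes of photosynthesis and photorespiration, 3 passed as higher in root and 0 as lower, against 1.43% and 0.715% over all probe sets. The median interaction was 0.50, against -0.01 over all probe sets. In the root effect 7 of the 17 rose and 2 fell, against 4.63% and 3.01% over all probe sets. In shoot 0 rose and 1 fell, against 1.49% and 1.47% over all probe sets.

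PSAE-1, a subunit of photosystem I, had 7.86, 7.62 and 7.57 in aladin-labelled roots, against 6.20, 6.41 and 6.31 in Wassilewskija-4 roots. All 6 shoot libraries lay between 12.29 and 12.44, and the interaction was 1.45 (SE 0.13, adjusted p = 2.4e-04). ALDH11A3, a cytosolic glyceraldehyde-3-phosphate dehydrogenase, had 6.66, 6.06 and 6.62 in roots labelled aladin, against 4.72, 4.53 and 4.52 in Wassilewskija-4 roots. Its shoot values spanned 10.97 to 11.17 (interaction 1.75, SE 0.19, adjusted p = 6.9e-04). NdhL, a nuclear-encoded subunit of the chloroplast NDH complex, had 6.18, 5.85 and 5.58 in roots labelled aladin, against 4.58, 4.64 and 4.76 in Wassilewskija-4 roots. Its interaction was 1.17 (SE 0.19, adjusted p = 0.0082). For all 3 genes the root groups did not overlap and both root groups stayed far under shoot. HPR, the peroxisomal hydroxypyruvate reductase of photorespiration, was chosen after its values were seen and had an interaction of 1.18 (SE 0.17, adjusted p = 0.0035). Among the 4 shoot markers of photosynthesis, 0 passed. RCA, the activase of Rubisco, had 0.62 (adjusted p = 0.053), and LHCB4.2, a light-harvesting protein, had -0.58 (adjusted p = 0.30).

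Plastid-encoded genes leaned the same way by smaller amounts. Probe sets that name several genes, as for plastid genes present in repeated copies, are outside the lists. Of 10 such genes for the NDH complex 0 passed the interaction, although all 10 interactions were positive, between 0.23 and 0.52, with a median of 0.41. In the root effect 9 of the 10 rose, against 4.63% over all probe sets. The photosystem and ATP synthase genes gave 1 call of 31 (median 0.16), psaC, a photosystem I subunit. The ribosome and polymerase genes gave 1 call of 17 (median 0.22), rps19, a ribosomal protein. Each is 1 call against 1.43% higher over all probe sets. In root, 8 of the 31 and 9 of the 17 rose, against 4.63% over all probe sets, and in shoot 1 and 3 did, against 1.49%. For rps19 the aladin-labelled roots had 12.65, 12.68 and 12.68, against 11.81, 11.95 and 11.89 in Wassilewskija-4 roots (interaction 0.59, SE 0.10, adjusted p = 0.012). The interaction of psaC was 0.51 (SE 0.11, adjusted p = 0.038), and leaving out any 1 of the 12 libraries ended its call, with an adjusted p of up to 0.10 where aladin root replicate 2 was left out. Outside the lists, the repeated plastid genes ndhB (0.58, adjusted p = 0.043) and, for the ribosome, rps12 (0.62, adjusted p = 0.021), rps7 (0.53, adjusted p = 0.021) and rpl2 (0.49, adjusted p = 0.049) also passed as higher in root. Each of these 4 was read on a pair of probe sets with identical values, counted as 8 of the 375, and they are named here with their values in view. Another rps12 probe set did not pass (0.30, adjusted p = 0.21). Leaving out any 1 library ended the call of rpl2 (adjusted p up to 0.12), and any 1 of 11, all but aladin root replicate 1, ended that of ndhB (up to 0.10), both highest without replicate 2 of the aladin roots. The rps7 call ended without aladin root replicates 2 or 3 or Wassilewskija-4 root replicates 1 or 3, and that of rps12 without aladin root replicate 3 or any 1 Wassilewskija-4 root library (adjusted p up to 0.062 for rps7 and 0.064 for rps12, both without Wassilewskija-4 root replicate 1). Plastid transcripts neighbour each other in shared transcription units and are not independent of each other.

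Cell wall genes moved in both directions. EXPB2, a beta-expansin, fell in root: it had 4.22, 4.44 and 4.24 in roots labelled aladin, against 6.51, 5.71 and 6.11 in Wassilewskija-4 roots. Shoots labelled aladin had 4.60, 4.67 and 4.62, against 5.27, 5.20 and 4.87 in Wassilewskija-4 shoots. The groups were apart in both organs, but the shoot effect of -0.48 did not pass (interaction -1.33, SE 0.24, adjusted p = 0.016). EXPA9, an alpha-expansin, fell in shoot, with 6.62, 6.28 and 6.74 in libraries labelled aladin, against 7.39, 7.46 and 7.54 in Wassilewskija-4. Its root effect of 0.30 did not pass (interaction 1.22, SE 0.16, adjusted p = 0.0023). Over 23 expansins, which loosen the wall during growth, these were the 1 higher and 1 lower call, and the median was -0.19. Shares over all probe sets were 1.43% and 0.715%.

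XTH29, an enzyme that cuts and rejoins xyloglucan chains, had 5.89, 5.85 and 6.13 in aladin-labelled roots, against 4.33, 4.81 and 4.53 in Wassilewskija-4 roots. The shoot groups overlapped between 4.87 and 5.28, and the interaction was 1.42 (SE 0.21, adjusted p = 0.0045). It was the 1 call of 10 in its family (median 0.15), against 1.43% higher over all probe sets. XTH33 fell in both organs, by 0.65 in root and by 1.39 in shoot, and its interaction of 0.74 did not pass (adjusted p = 0.052). A pair of wall genes chosen after their values were seen rose in root. CSLC04, which makes the xyloglucan backbone, had an interaction of 0.95 (SE 0.14, adjusted p = 0.0040), and BGLU45, a monolignol glucosidase, had 1.23 (SE 0.19, adjusted p = 0.0054). CCOAMT, a methyltransferase of the caffeoyl-CoA type, had 6.92, 7.06 and 6.67 in aladin-labelled roots, against 4.21, 3.73 and 4.42 in Wassilewskija-4 roots. Its interaction of 2.21 was imprecise (SE 0.51, adjusted p = 0.047) and lost its call without any 1 of 11 libraries, all but aladin shoot replicate 3 (adjusted p up to 0.12, without Wassilewskija-4 root replicate 2).

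Hormone lists gave few calls. In the auxin response list 1 of 20 members was higher in root and 1 lower, against 1.43% and 0.715% over all probe sets (median 0.16). GH3.9, of the family that joins auxin to amino acids, fell in shoot, with 6.93, 7.01 and 6.90 in libraries labelled aladin, against 7.83, 7.97 and 7.69 in Wassilewskija-4. Its root effect of 0.32 did not pass (interaction 1.20, SE 0.15, adjusted p = 0.0017). GH3.17, which conjugates auxin to glutamate, had an interaction of -0.59 (SE 0.13, adjusted p = 0.038). Its call ended without any 1 of 9 libraries, all but aladin root replicate 1, aladin shoot replicate 1 and Wassilewskija-4 shoot replicate 2, with an adjusted p of up to 0.10 without aladin root replicate 2.

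The type-A response regulators, which are induced by cytokinin and damp its signal, did not pass in the interaction although both genes measured fell in shoot. Over all probe sets 1.47% fell in shoot and 2.15% passed the interaction. ARR15 had 4.34, 4.74 and 5.37 in aladin-labelled shoots, against 6.65, 7.12 and 6.42 in Wassilewskija-4 shoots. In root it had 4.65, 4.19 and 4.38 with the aladin label, against 5.57, 5.31 and 5.33 in Wassilewskija-4. It fell in both organs and the groups were apart in both (interaction 0.92, SE 0.34, adjusted p = 0.23). RR16 had an interaction of 0.82 (SE 0.29, adjusted p = 0.20). Of 7 jasmonate genes 0 passed by limma, and 0 had an unadjusted p under 0.05 (median 0.02). Over all probe sets 2.15% passed, and 2453 of 17481 had an unadjusted p under 0.05. At that share of calls, 0 among 7 genes says little about jasmonate.

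Of 16 CLE peptide genes, 2 passed as higher in root, against 1.43% over all probe sets (median 0.11). CLE41, whose peptide keeps vascular stem cells undifferentiated, had 9.43, 9.48 and 9.37 in aladin-labelled roots, against 8.85, 8.81 and 8.81 in Wassilewskija-4 roots. Its shoot groups overlapped between 9.01 and 9.29 (interaction 0.65, SE 0.12, adjusted p = 0.017). The call ended without aladin root replicate 2 (adjusted p = 0.056) or Wassilewskija-4 root replicate 3 (adjusted p = 0.054). CLE20 fell in shoot (interaction 0.78, SE 0.16, adjusted p = 0.028), a call that was kept without aladin root replicate 1, aladin shoot replicate 2, Wassilewskija-4 root replicate 1 or Wassilewskija-4 shoot replicate 2 and lost without each other library, with an adjusted p of up to 0.080 without Wassilewskija-4 root replicate 3. The small iron-deficiency peptide genes AT1G47400 and AT1G47395 rose in root, and their interactions of 0.95 (adjusted p = 0.078) and 0.57 (adjusted p = 0.26) did not pass.

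MADS-box genes, a family of transcription factors known for floral and root development, gave 0 higher and 3 lower calls among 68 measured, against 1.43% and 0.715% over all probe sets (median -0.04). AGL19, an activator of flowering, had 4.54, 4.61 and 4.55 in roots labelled aladin, against 5.63, 5.85 and 5.80 in Wassilewskija-4 roots. Its shoot groups overlapped between 3.55 and 4.42 (interaction -1.67, SE 0.22, adjusted p = 0.0026). AGL42 fell in root, with 5.68, 5.56 and 5.45 in libraries labelled aladin, against 6.74, 6.77 and 6.85 in Wassilewskija-4 (interaction -0.79, SE 0.17, adjusted p = 0.036). AGL79 fell in root as well (interaction -1.02, SE 0.21, adjusted p = 0.030). Each of these last calls ended without any 1 of 8 libraries. For AGL42 they were all but aladin root replicate 1, aladin shoot replicate 2, and Wassilewskija-4 shoot replicates 2 and 3 (adjusted p up to 0.096, without Wassilewskija-4 root replicate 3). For AGL79 they were all but aladin root replicate 2, aladin shoot replicate 1, Wassilewskija-4 root replicate 2 and Wassilewskija-4 shoot replicate 1 (adjusted p up to 0.080, without Wassilewskija-4 root replicate 1).

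Enzyme families of specialised metabolism and detoxification contained single strong members. ATGSTF13, a phi-class glutathione transferase, had 6.34, 6.56 and 6.45 in roots labelled aladin, against 7.77, 7.81 and 7.47 in Wassilewskija-4 roots. In shoot the groups overlapped (interaction -1.92, SE 0.33, adjusted p = 0.012), and the other 14 of 15 members did not pass (median -0.13). The share called lower over all probe sets was 0.715%. AT1G30730, a berberine bridge enzyme-like oxidase, had 7.87, 7.71 and 7.78 in roots labelled aladin, against 5.80, 5.78 and 5.79 in Wassilewskija-4 roots. Shoot values spanned 4.42 to 5.01 (interaction 1.88, SE 0.18, adjusted p = 2.8e-04). It was the 1 call of 24 in its family (median interaction 0.09), against 1.43% higher over all probe sets. Of the 24, 7 rose and 1 fell in root, against 4.63% and 3.01% over all probe sets.

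Among 60 UDP-glycosyltransferases, which attach sugars to small molecules, 2 were higher and 1 was lower, against 1.43% and 0.715% over all probe sets (median -0.09). UGT71B1 fell in root (interaction -1.11, SE 0.20, adjusted p = 0.015). UGT73C7 (1.13, adjusted p = 0.049) and UGT76D1 (0.81, adjusted p = 0.035) rose in root. The UGT73C7 call held without aladin root replicate 1 or aladin shoot replicate 2 and ended without any 1 of the other 10 libraries (the highest adjusted p was 0.12, with aladin root replicate 2 left out). That of UGT76D1 held without aladin shoot replicate 2, Wassilewskija-4 root replicate 1 or Wassilewskija-4 shoot replicate 2 and ended without any 1 of the other 9 (the highest adjusted p was 0.083, with aladin root replicate 3 left out). CYP71B34 fell in root (interaction -0.86, SE 0.17, adjusted p = 0.022). It was the 1 call of 24 cytochrome P450 genes (median -0.13), against 0.715% lower over all probe sets. It did not pass without aladin root replicate 1 (adjusted p = 0.057) or 2 (adjusted p = 0.063), Wassilewskija-4 root replicate 1 (adjusted p = 0.062) or 2 (adjusted p = 0.065), or Wassilewskija-4 shoot replicate 1 (adjusted p = 0.050).

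The lowest interactions were mostly falls in root. AT5G14650 had 4.40, 4.60 and 4.21 in roots labelled aladin, against 9.53, 8.74 and 9.14 in Wassilewskija-4 roots. In shoot it had 4.63, 4.41 and 3.86 with the aladin label, against 4.71, 4.80 and 4.67 in Wassilewskija-4. The Wassilewskija-4 roots stood alone as the high group, and aladin-labelled roots were at the level of shoots. The interaction was -4.30 (SE 0.30, a 19.7-fold lower ratio in root, adjusted p = 5.3e-05). AT3G22142 had 6.66, 6.72 and 7.56 in roots labelled aladin, against 9.92, 9.47 and 9.96 in Wassilewskija-4 roots. All 6 shoot libraries lay between 11.17 and 11.83, and the interaction was -3.15 (SE 0.31, adjusted p = 3.1e-04). AT1G52820 (-2.51), AT4G12170 (-2.22), AT5G36130 (-1.95) and AT3G12900 (-1.87) also fell in root without passing in shoot. The AT3G12900 call ended without aladin root replicate 2 (adjusted p = 0.053) or Wassilewskija-4 root replicate 1 (adjusted p = 0.054).

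Other low interactions came from rises in shoot. AT5G53230 rose in both organs: it had 5.64, 5.39 and 6.13 in aladin-labelled roots, against 4.15, 3.85 and 4.40 in Wassilewskija-4 roots. In shoot it had 8.45, 8.42 and 8.72 with the aladin label, against 4.90, 5.28 and 4.47 in Wassilewskija-4. The rise was larger in shoot, with an interaction of -2.07 (SE 0.32, adjusted p = 0.0057). AT4G22470 rose in shoot, and its root effect of -0.77 did not pass (interaction -2.14, SE 0.34, adjusted p = 0.0077).

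TPS-CIN, the terpene synthase that makes 1,8-cineole in roots, was chosen after its values were seen. Both of its probe sets name the same gene pair of near-identical copies, so that signal cannot be assigned to either copy. On one probe set the shoots labelled aladin had 7.92, 8.15 and 7.78, against 6.57, 6.68 and 6.58 in Wassilewskija-4 shoots. Root values ran from 11.52 to 11.77, and the interaction was -1.13 (SE 0.13, adjusted p = 0.0010). The other probe set gave -0.93. Of the genes chosen after their values were seen, PUP15, of the purine permease family (-1.25, adjusted p = 0.016), and SBT4.12, a subtilisin-like protease (-1.31, adjusted p = 0.025), also rose in shoot without passing in root. The SBT4.12 call ended without any 1 of the 3 aladin root libraries, aladin shoot replicates 1 and 3, and Wassilewskija-4 root replicates 1 and 3 (adjusted p up to 0.071, without the Wassilewskija-4 root replicate 1).

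For 10 of the 375 probe sets, the genotype effect passed in both organs with opposite signs: 8 fell in root and rose in shoot, and 2 rose in root and fell in shoot. AT1G10640 had 5.01, 5.29 and 5.14 in roots labelled aladin, against 6.60, 6.43 and 6.55 in Wassilewskija-4 roots. Shoots had 8.71, 8.64 and 8.42 with the aladin label, against 7.60, 7.95 and 7.96 in Wassilewskija-4. The groups did not overlap in either organ (interaction -2.13, SE 0.17, adjusted p = 1.4e-04). AT3G28310 and AT3G28320, consecutive locus numbers on chromosome 3, did the same. The interaction was -1.72 for AT3G28310 (SE 0.20, adjusted p = 0.0011) and -2.13 for AT3G28320 (SE 0.34, adjusted p = 0.0069). AT1G60590 (-1.64), AT1G68238 (-1.55) and AT3G16560 (-1.12) completed the named genes of this direction. AT3G46490 went the other way, with 4.98, 4.76 and 5.0 in aladin-labelled roots, against 3.60, 4.01 and 3.83 in Wassilewskija-4 roots. In shoot it had 9.25, 9.11 and 9.28 with the aladin label, against 9.76, 10.01 and 9.79 in Wassilewskija-4 (interaction 1.74, SE 0.17, adjusted p = 2.8e-04).

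At the extremes of organ preference, the direction of the interaction varied with the organ in which a gene was mainly expressed. Organ preference was taken as the mean of both genotypes in root minus that in shoot. Among the 150 probe sets higher in shoot by over 4 log2 units, 19 passed as higher in root and 0 as lower, against 1.43% and 0.715% over all probe sets. Their median interaction was 0.40, made up of a median of 0.30 in root and -0.00 in shoot. Of the 103 probe sets higher in root by over 4, 1 passed as higher and 12 as lower, and the median was -0.32, made up of -0.18 in root and 0.17 in shoot. Less extreme probe sets did not divide so clearly. Of the 639 higher in root by 2 to 4, 73 passed (11.4%), 35 as higher and 38 as lower, with a median of -0.12. Of the 542 higher in shoot by 2 to 4, 25 passed (4.61%), 18 as higher and 7 as lower, with a median of -0.00. Within 2 log2 units, 245 of the 16047 probe sets passed (1.53%), 177 as higher and 68 as lower, with a median of -0.00. The organ preference was computed from the same 12 libraries and shares them with the interaction.

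Summed over genes, the shift was visible library by library. The 150 shoot-preferring probe sets averaged 5.23, 4.86 and 4.99 in roots labelled aladin, against 4.65, 4.58 and 4.60 in Wassilewskija-4 roots, without overlap. The 103 root-preferring probe sets averaged 5.05, 4.96 and 5.25 in shoots labelled aladin, against 5.03, 4.81 and 4.69 in Wassilewskija-4 shoots, with overlap. The part of tissue carried over between the separated organs in these averages was not tested. Of the 4 photosynthesis markers, RCA rose in root by 0.61 (adjusted p = 0.0031), with an interaction of 0.62 (adjusted p = 0.053). PORB, of chlorophyll synthesis, had an interaction of 0.86 (adjusted p = 0.34), LHCB4.1, a light-harvesting protein, had 0.20 (adjusted p = 0.65), and LHCB4.2 had -0.58 (adjusted p = 0.30). The list's mean in root was 6.55 to 7.23 with the aladin label and 6.61 to 6.77 in Wassilewskija-4. Stomatal markers (3 of 6 measured) averaged 3.20 to 3.73 in aladin-labelled roots and 3.29 to 3.59 in Wassilewskija-4 roots, with 0 calls in the interaction. In shoot they averaged 6.90 to 7.11 with the aladin label and 7.45 to 7.72 in Wassilewskija-4. There SPCH (-0.82) and MUTE (-0.93), transcription factors of stomatal development, fell, against 1.47% over all probe sets. FAMA, the other measured marker of the list, had a shoot effect of -0.10 that did not pass (adjusted p = 0.79). Root hair markers (2 of 5 measured) averaged 4.79 to 5.07 in aladin-labelled shoots and 4.88 to 5.29 in Wassilewskija-4 shoots, also with 0 calls. With the probe sets beyond 2 log2 units left out and p adjusted over the rest, a choice made after seeing the data, 185 passed, 133 of them higher in root.

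**Figure D3:**
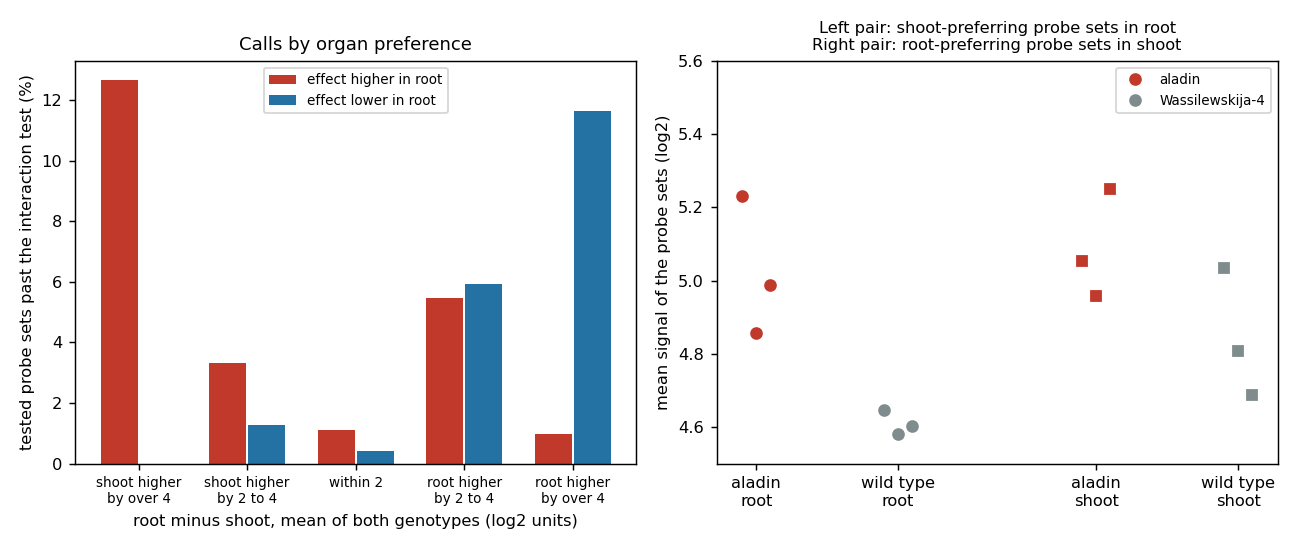
Left: percent of tested probe sets past the interaction test, higher (red) or lower (blue) in root, by root minus shoot signal in log2 units. Right: mean log2 signal per library (axis from 4.5) of the 150 shoot-preferring probe sets in root (circles) and the 103 root-preferring ones in shoot (squares), for aladin (red) and Wassilewskija-4 (grey); the root groups are apart and the shoot groups overlap.

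No nuclear pore gene passed. Of 20 measured members, ALADIN included, 0 passed by limma, and the median was 0.01. An unadjusted p under 0.05 was reached by 2 of them, against 2453 of 17481 over all probe sets. The highest member was AT1G59660, with 9.44, 9.56 and 9.54 in aladin-labelled roots, against 8.56, 8.62 and 8.59 in Wassilewskija-4 roots. Shoots had 8.88, 8.69 and 8.75 with the aladin label, against 8.52, 8.14 and 8.51 in Wassilewskija-4. Its rise passed in root, and its interaction of 0.54 did not pass (SE 0.15, adjusted p = 0.099). Genes of mRNA export gave 0 calls of 4 (median 0.02, 0 at an unadjusted p under 0.05). Heat shock (0 of 5) and mitosis (0 of 6) had 0 at an unadjusted p under 0.05 as well. Flavonoid genes gave 0 of 6 with 3 at an unadjusted p under 0.05, and peroxidases 0 of 8 with 1. DFR, an enzyme of anthocyanin synthesis, had 1.54 with a wide error (SE 0.64, adjusted p = 0.30), and PRXCA, a peroxidase, had 1.84 (SE 0.44, adjusted p = 0.059). A miss at this threshold does not show that the organs responded alike. Of the 30 lists, 19 held at least 1 call, 4 held calls in both directions, and the list of casparian strip proteins had no measured member. Over all probe sets 2.15% passed, and the lists were chosen with earlier results of these data known.

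**Figure D4:**
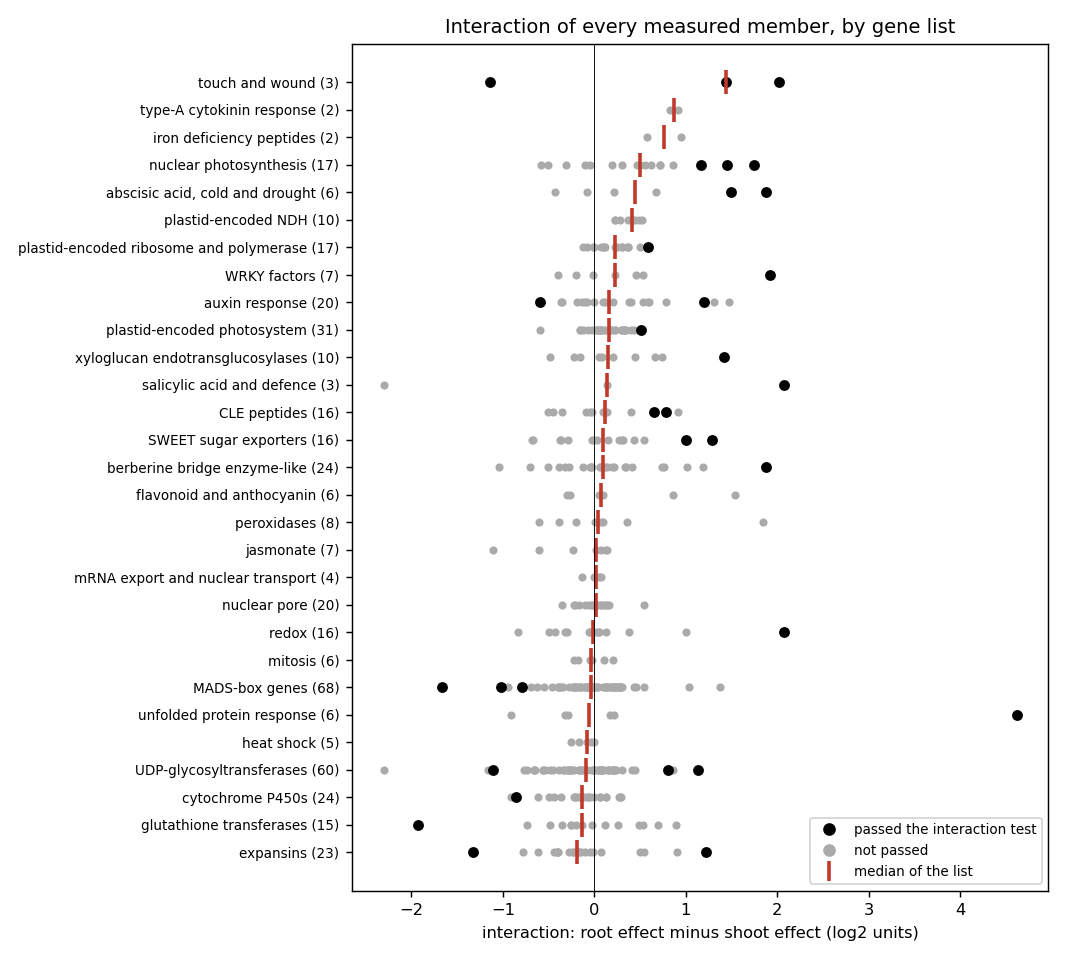
Interaction (log2 units, root effect minus shoot effect) of every measured member of 29 gene lists, with members that passed in black, the others in grey, and the list's median as a red bar. Medians run from 1.44 for the 3 touch and wound genes to -0.19 for the 23 expansins, and most members of most lists lie near 0.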

How the data were processed

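The authors deposited log2 values for 12 arrays and 38408 probe sets; the submitters' processing notes name RMA as the method. For software, version, summary level and build, the sources used here give nothing. The values carry no detection calls. Genes came from the annotation supplied for the array, with symbols from RefSeq (assembly TAIR10.1) for 16574 of the 16722 probe sets with exactly 1 gene. A further 759 named several genes, and 20927 with no named gene were left out. Groups came from the sample titles.

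Group means were fitted with limma 3.58.1 (lmFit, eBayes) in R 4.3.3, with 8 residual and 3.67 prior degrees of freedom, and Benjamini-Hochberg adjustment of p-values ran over 17481 probe sets. The genotype effects in root and shoot came from the same fit. The fit was also run on simulated data with the same spread in every group, where only the size of planted effects had to be recovered. That run does not test the calls. Figures were drawn with Python 3.11 and matplotlib 3.10.9.

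Named genes were ALADIN; among passing probe sets with exactly 1 gene, the 12 highest and 12 lowest interactions and the 5 smallest p; up to 6 with opposite effects; and up to 3 of each of 30 lists by smallest p. The comparison, lists and rule were chosen with earlier results of these data known. The number of arrays limits the precision. Alternatives covered the prior, the probe sets tested, normalization, weights, replicate blocks, thresholds and single libraries. Among the probe sets that passed, 8 hold values identical to another tested probe set.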

Additional observations from a re-analysis of the deposited data

Results flagged for a closer look

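The genes below are listed because the test of the difference between the genotype effects in root and in shoot passed for each of them (limma, adjusted p under 0.05), with the interaction in log2 units in brackets. Among those with a greater effect in root, the highest were AT1G18830 (4.62), AT5G42530 (3.41), AT4G27654 (2.28), AT2G36650 (2.26), CCOAMT (2.21), AT1G19210 (2.20), AT2G22760 (2.17), AT1G61750 (2.15), AT5G58390 (2.12), AT3G61390 (2.1), AT5G03204 (2.07) and GRX480 (2.07). Next came CML38 (2.02), WRKY41 (1.91), AT1G30730 (1.88), COR15A (1.88), ALDH11A3 (1.75), AT3G46490 (1.74), AT1G69890 (1.70), LTI30 (1.49), PSAE-1 (1.45), CML37 (1.44), XTH29 (1.42) and SWEET11 (1.28). The smallest of this direction were EXPA9 (1.22), GH3.9 (1.20), NdhL (1.17), UGT73C7 (1.13), SWEET1 (1.00), UGT76D1 (0.81), CLE20 (0.78), CLE41 (0.65), rps19 (0.59) and psaC (0.51).

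A lower effect in root was found for AT5G14650 (-4.30), AT3G22142 (-3.15), AT1G52820 (-2.51), AT4G12170 (-2.22), AT4G22470 (-2.14), AT1G10640 (-2.13), AT3G28320 (-2.13), AT5G53230 (-2.07), AT5G36130 (-1.95), ATGSTF13 (-1.92), AT3G12900 (-1.87), AT3G28310 (-1.72), AGL19 (-1.67), AT1G60590 (-1.64) and AT1G68238 (-1.55). The remaining ones were EXPB2 (-1.33), STZ (-1.15), AT3G16560 (-1.12), UGT71B1 (-1.11), AGL79 (-1.02), CYP71B34 (-0.86), AGL42 (-0.79) and GH3.17 (-0.59).

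In the fit over all 38408 probe sets, 202 probe sets with no named gene passed the same interaction test. They lie outside the comparisons above, and their genes are not named here.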

How the results depend on the processing

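The 375 interaction calls (250 higher and 125 lower in root) became 594 (387 and 207) with a trended, robust prior, 125 (92 and 33) at an adjusted p under 0.01, and 211 (142 and 69) when at least 1 log2 unit was required as well. With only probe sets whose organ means lay within 2 log2 units, an alternative added after the data were seen, 185 passed (133 and 52). Leaving out each library in turn gave 211 to 374 calls, 142 to 254 higher and 63 to 158 lower. The causes of these changes were not tested. The counts stayed within 1.5 times of the first ones with all probe sets (423), with dim probe sets left out (429), with 1 gene per probe set (359), with medians centred (365), with quantile normalization over all arrays (328) or within organ (355), with array weights (420) and with weights per organ (345). A similar count did not mean the same probe sets. With all probe sets tested, 221 of the 375 passed and 154 did not, and 202 of the 423 had no named gene. In that setting 9 of the 57 named genes that had passed lost their call. Higher calls outnumbered lower ones in each setting above.

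The labels state no pairing by replicate number. Over 18 same-numbered pairs, the correlation of deviations from the group means lay between -0.06 and 0.10 and was over 0.1 in 0 pairs. For pairs with other numbers it lay between -0.10 and 0.09. With 3 libraries per group, such values cannot tell whether same-numbered samples were grown or processed together. With the replicate block, 312 probe sets passed (209 and 103), and with a block within genotype 207 (141 and 66), of which 188 were among the 375. Named genes that lost their call under the block were GH3.17, CCOAMT, CLE20, STZ, AGL79, AGL42 and psaC, with an adjusted p of 0.053 to 0.079. Under the block within genotype they were GH3.17, CCOAMT, STZ, UGT76D1, CLE41, ATGSTF13 (adjusted p = 0.054), AT4G27654 (adjusted p = 0.060), AGL42, rps19 (adjusted p = 0.082) and psaC, with an adjusted p of up to 0.14.

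Of the 110 named genes 57 passed, and 41 of these kept an adjusted p under 0.05 in every alternative fit that tested them. The stricter thresholds were applied to the counts only, not gene by gene. Fits on fewer probe sets, such as those within 2 log2 units, did not test every named gene. Of the 53 that did not pass, 22 passed in at least 1 alternative. Among genes that did not pass, the direction turned for AT5G48570 (0.089 without Wassilewskija-4 shoot replicate 3 and 0.052 without Wassilewskija-4 root replicate 2), Hsp70-2 (0.14 without aladin shoot replicate 3) and PSD (-0.028 without aladin shoot replicate 1); with each library left out in turn they ranged from -0.22 to 0.089, from -0.51 to 0.14 and from -0.028 to 0.097. Signals near background, 3 libraries per group and a larger spread in shoot limit what can be called.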

Other observations

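TRM genes, a family picked because members of it had passed, code for TON1 recruiting motif proteins, which bind a regulator of microtubule arrays. Of 15 measured, 3 passed as higher in root and 0 as lower, against 1.43% and 0.715% over all probe sets, and the median interaction was 0.14. TRM24 had 5.25, 5.45 and 5.18 in aladin-labelled roots, against 4.65, 4.30 and 4.36 in Wassilewskija-4 roots. In shoot it had 6.01, 6.19 and 5.68 with the aladin label, against 6.24, 6.52 and 6.53 in Wassilewskija-4. The groups did not overlap in either organ, and the interaction was 1.32 (SE 0.21, adjusted p = 0.0059 by limma). TRM21 had 0.72 (adjusted p = 0.023) and TRM19 0.64 (adjusted p = 0.023). The TRM21 call ended without any 1 of the 6 root libraries or Wassilewskija-4 shoot replicate 1 (adjusted p up to 0.067, without Wassilewskija-4 root replicate 3), and the TRM19 call ended without aladin root replicates 2 or 3 or Wassilewskija-4 root replicates 1 or 3 (adjusted p up to 0.068, without Wassilewskija-4 root replicate 1). These genes were chosen after their values were seen.

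MT1B, a metallothionein gene, fell in root, with 4.68, 4.49 and 4.92 in libraries labelled aladin, against 5.73, 5.69 and 5.77 in Wassilewskija-4 (interaction -1.55, SE 0.25, adjusted p = 0.0076). MGL, a methionine gamma-lyase, rose in root, with 6.93, 6.85 and 6.55 in libraries labelled aladin, against 5.95, 5.75 and 5.71 in Wassilewskija-4 (interaction 1.42, SE 0.18, adjusted p = 0.0021). Both genes were likewise picked with their values in view. Estimated array weights ran from 0.944 to 2.45 in root and from 0.641 to 0.808 in shoot.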
